A study of Mus musculus with 18 samples.

Results

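Insulin-like growth factor (IGF) signalling was read through 10 genes: the ligands Igf1 and Igf2, the receptors Igf1r and Igf2r, and the binding proteins Igfbp2, Igfbp3, Igfbp4, Igfbp5, Igfbp6 and Igfbp7. They were chosen by name from the 50600 gene identifiers in the files, and all 10 passed the filter on low counts that left 13939 genes for testing. The study measured polyA RNA of C2C12 cells, a mouse myoblast line that proliferates in growth medium (GM) and fuses into myotubes in differentiation medium. Its stable lines were a control line, a line transfected with px459-Mapk6sg (depleted of ERK3, the kinase encoded by Mapk6) and a line transfected with px459-Mk5sg (depleted of MK5, a kinase that ERK3 binds, encoded by Mapkapk5). Each line was sampled in GM and on day 2 of differentiation (DM2). The 6 groups held 3 libraries each, 18 in all.

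All groups were C2C12 cells carrying a plasmid, so no untransfected cells serve as a reference. The labels do not say whether a line is 1 clone or a pool, nor that the 3 libraries of a group came from separate cultures. The p-values below therefore measure the spread between these libraries, which may be technical. In bulk RNA, fewer cells of a type and less RNA per cell cannot be told apart.

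IGF1 and IGF2 act through the receptor tyrosine kinase IGF1R, which signals through the insulin receptor substrates to PI3K, Akt and mTOR. IGF2R, the cation-independent mannose 6-phosphate receptor, takes IGF2 up for degradation in lysosomes and does not signal as a kinase. The secreted binding proteins hold the ligands outside the cell, either keeping them from the receptor or carrying them to it, and proteases release the ligands again. In skeletal muscle IGF2 is an autocrine factor of differentiating myoblasts, and IGF1 promotes growth of the fibres.

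The libraries held 17.5 to 23.4 M reads assigned to genes. Mapk6 lay between 96.8 and 136 CPM (read counts scaled to library size, with TMM factors) in the ERK3-depleted libraries at DM2 and between 204 and 219 in control libraries, a log2 difference of -0.86 ± 0.12 (SE; edgeR adjusted p = 2.18e-05), while in GM the groups overlapped (105 to 133 against 119 to 150). Mapk6 was also lower than control in the MK5-depleted line at DM2 (-0.40 ± 0.12, edgeR adjusted p = 0.0115). Mapkapk5 held 11 to 32 gene-assigned reads per library in the counts. Its difference from control at DM2 was -0.68 ± 0.26 in the MK5-depleted line (edgeR adjusted p = 0.0443) and -0.57 ± 0.26 in the ERK3-depleted line (0.0751). The gene overlaps Adam1a and Gm42878 on the same strand, so these counts are uncertain. On the deposited RSEM estimates it lay at 30.9 to 35.6 TPM (transcript abundance scaled to length and library size) in the MK5-depleted GM libraries against 52.8 to 59.4 in control, and at 42.0 to 58.0 against 65.6 to 71.7 at DM2. All 8 myotube markers, Myog among them, rose with differentiation in each line. Endothelial markers summed to at most 1.53 CPM, leukocyte markers to at most 2.73, adipocyte markers to at most 10.3 and hepatocyte markers to at most 0.11 CPM in any library. At DM2 replicate 3 stood apart from replicates 1 and 2 in both depleted lines: the mean squared difference of gene counts over that of sampling noise was 38.7 and 88 against 23.8 in the ERK3-depleted line, and 38.5 and 43.9 against 8.02 in the MK5-depleted line. The share of reads that STAR counting, without regard to strand, gave to no gene feature ranged from 2.40% to 7.73%. These are called reads outside genes below. Gene features are exons, so reads within introns can be among them. The highest values were in ERK3-depleted replicates 1 and 2 and MK5-depleted replicates 1 and 2 at DM2.

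The genes lie on 7 chromosomes of GRCm38. Igf1 is on chromosome 10 (87858265 to 87937042, plus strand), and Igf2 (142650766 to 142666816, minus strand) and Igf1r (67952827 to 68233668, plus strand) are on chromosome 7. Igf2r is on chromosome 17 (12682406 to 12769664, minus strand). Igfbp2 (72824503 to 72852474, plus strand) and Igfbp5 (72857932 to 72874884, minus strand) are neighbours on chromosome 1, with their 3′ ends towards each other. Igfbp3 (7206086 to 7213923, minus strand) and Igfbp4 (99041244 to 99054392, plus strand) are on chromosome 11, Igfbp6 is on chromosome 15 (102144362 to 102149511, plus strand) and Igfbp7 is on chromosome 5 (77349240 to 77408041, minus strand). Exons of Igf2 overlap the antisense transcript Igf2os, and those of Igfbp7 overlap the antisense gene Polr2b, so the counts of the reverse strand were used. Exons of Igf2 also overlap the same-strand model Gm49394, which counting by strand does not separate. The effect of that overlap on the Igf2 counts was not tested.

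Of the 10 genes, Igf1, Igf2, Igfbp3 and Igfbp4 rose most with differentiation in the control line, and their upstream sequence is shown for that reason. The windows are the 250 bases before a RefSeq transcription start on GRCm38.p6, written in the direction of the gene, with capitals marking CANNTG, the E-box core that factors of the MyoD family bind. The letters CANNTG read the same on both strands.
Igf1, chr10:87860861-87861110, plus strand: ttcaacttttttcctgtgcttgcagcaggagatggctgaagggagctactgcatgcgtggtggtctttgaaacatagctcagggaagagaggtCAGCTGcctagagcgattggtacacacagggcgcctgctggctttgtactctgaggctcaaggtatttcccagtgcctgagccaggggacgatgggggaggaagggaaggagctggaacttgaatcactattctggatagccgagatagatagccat
Igf2, chr7:142666817-142667066, minus strand: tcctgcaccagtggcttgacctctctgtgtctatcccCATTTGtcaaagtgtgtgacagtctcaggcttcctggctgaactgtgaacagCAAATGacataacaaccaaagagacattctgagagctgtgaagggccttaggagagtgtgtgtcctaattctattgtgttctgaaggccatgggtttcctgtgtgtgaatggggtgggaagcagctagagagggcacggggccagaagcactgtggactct
Igfbp3, chr11:7213924-7214173, minus strand: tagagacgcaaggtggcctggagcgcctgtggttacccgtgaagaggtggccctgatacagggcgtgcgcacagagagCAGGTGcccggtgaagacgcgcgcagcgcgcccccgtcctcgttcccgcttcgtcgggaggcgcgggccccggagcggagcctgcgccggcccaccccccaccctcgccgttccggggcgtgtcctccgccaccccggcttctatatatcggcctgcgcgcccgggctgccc
Igfbp4, chr11:99040994-99041243, plus strand: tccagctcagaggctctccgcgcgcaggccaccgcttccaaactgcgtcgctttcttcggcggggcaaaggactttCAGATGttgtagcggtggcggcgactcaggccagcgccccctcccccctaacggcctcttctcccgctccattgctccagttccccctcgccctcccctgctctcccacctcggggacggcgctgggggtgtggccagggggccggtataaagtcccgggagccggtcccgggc

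The E-box letters began 157 bases before the start in Igf1, 172 in Igfbp3 and 174 in Igfbp4, and at 213 and 161 in the Igf2 window shown. RefSeq lists 4 Igf2 starts with such a window, and the other 3 windows held no CANNTG. Which of these starts the cells used was not tested. Over the 14 windows of the 10 genes, 9 held CANNTG, against 66.2% of 32851 RefSeq windows of the same length. The form CAGCTG stood in 1 of the 14, that of Igf1, against 13% of all windows. The letters GTAAACA, a core that FoxO factors bind, stood in none of the 14 on either strand, against 3.17% of all windows. These matches describe the letters of the windows and were not tested as binding sites.

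Per transcript length, Igfbp7, Igfbp2, Igfbp6 and Igfbp5 were the most abundant of the 10 genes, while Igfbp3 and Igfbp4 were the lowest of them in GM in each line. In control GM libraries Igfbp7 stood highest at 862 ± 37.9 TPM (SD, n = 3), followed by Igfbp2 at 499 ± 81.7, Igfbp6 at 255 ± 36.6 and Igfbp5 at 115 ± 49.2, and the libraries of these neighbours did not overlap. The other 6 genes lay within 5.80 ± 0.538 (Igfbp3) and 7.27 ± 2.75 (Igf2) TPM, and each overlapped its neighbour in the order. At DM2 in control the order was Igfbp7 (688 ± 35.6), Igfbp2 (647 ± 160), which overlapped it, Igfbp5 (306 ± 26.2), Igfbp6 (155 ± 13.6) and Igf2 (110 ± 21.3), and the receptors were lowest, with Igf1r at 11.8 ± 0.841 and Igf2r at 9.11 ± 1.04 TPM. In both depleted lines Igfbp2 was the highest at DM2, at 1060 ± 271 TPM in the ERK3-depleted and 1150 ± 144 in the MK5-depleted line, and did not overlap Igfbp7 in second place (431 ± 63.5 and 528 ± 62.3).

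**Figure D1:**
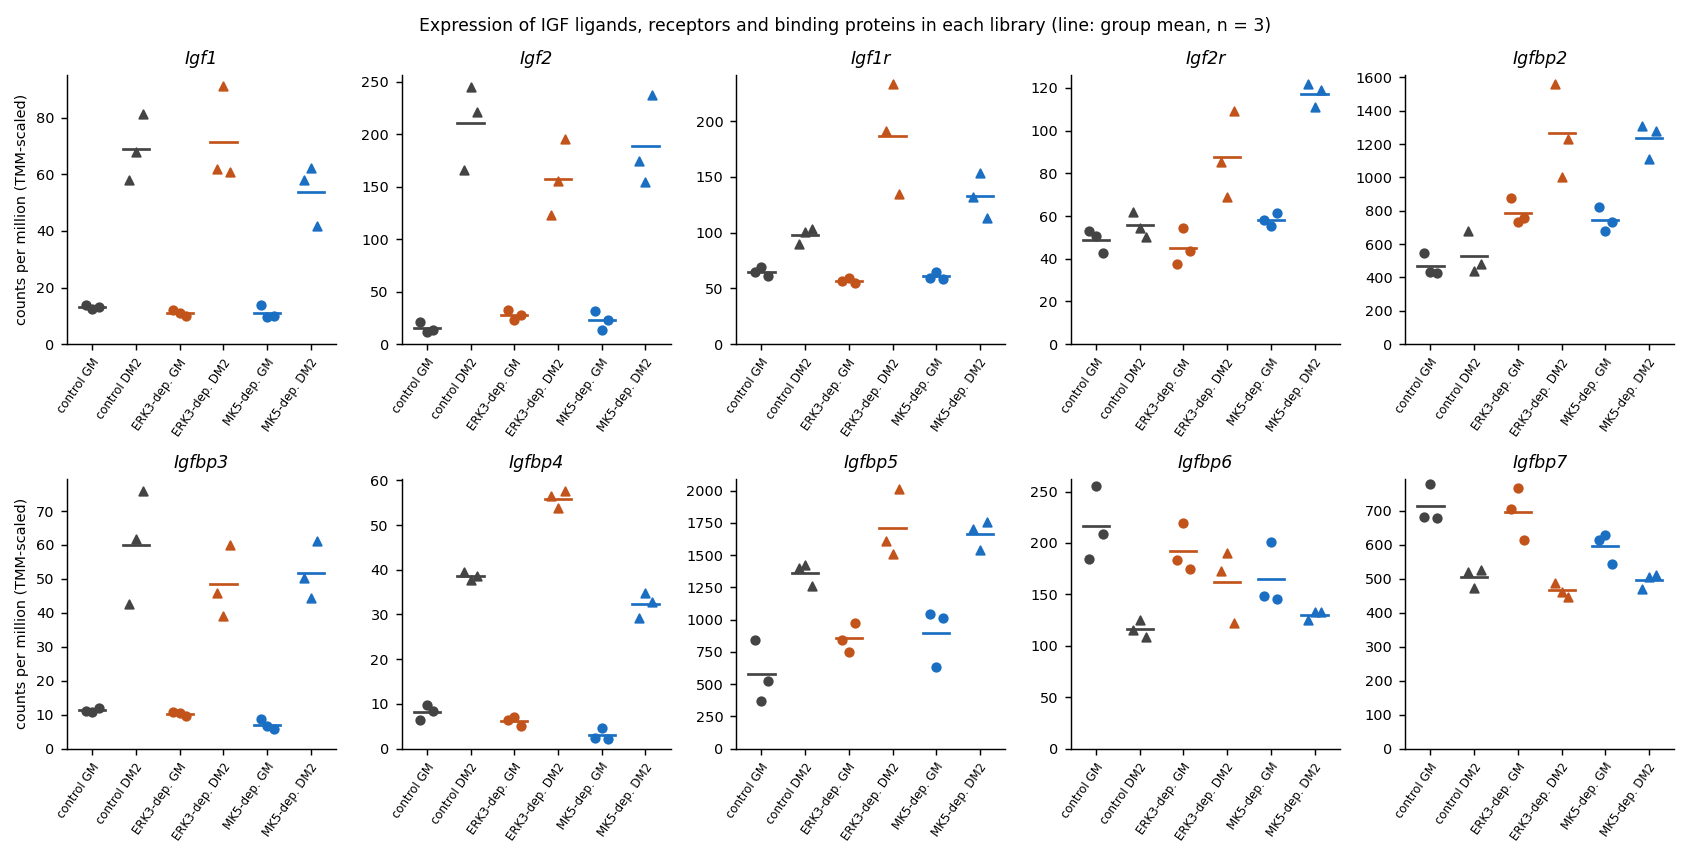
Expression of the 10 genes in CPM (linear axes from 0, TMM-scaled) in each of 18 libraries, by line and medium; circles are GM, triangles are DM2 and lines are means of 3 libraries. Igf1, Igf2, Igfbp3 and Igfbp4 are higher at DM2 in each line, and Igfbp2 is higher in both depleted lines than in control in GM and at DM2.

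Differentiation of the control line raised both ligands, Igf1r and 3 binding proteins, and lowered Igfbp6 and Igfbp7. Of the 10 genes, 6 rose and 2 fell (edgeR adjusted p under 0.05), where 22.5% of all tested genes rose and 23.1% fell. The median log2 change of the 10 was 0.91, against -0.02 over all tested genes. The comparison asks how the IGF genes respond as myoblasts leave growth medium.

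Igf2 counted 21.3, 11.4 and 13.2 CPM in the control GM libraries and 166, 245 and 221 CPM at DM2. Every DM2 library lay far above every GM library, a 13.8-fold rise (log2 3.79 ± 0.31, edgeR adjusted p = 7.28e-08). Igf1, the ligand that also mediates growth hormone action, counted 13.8, 12.3 and 13.1 CPM in GM and 58.1, 67.9 and 81.2 at DM2. It rose 5.29-fold (log2 2.40 ± 0.18, edgeR adjusted p = 1.29e-08), again without overlap. A ratio of 2 genes within a library does not depend on the scaling of the library. A TPM ratio does depend on the transcript lengths that RSEM estimated. These lengths moved for both ligands, as given below, and their part in the ratio was not tested. Igf2 stood at 0.892 to 1.41 times the TPM of Igf1 in control GM libraries and at 3.55 to 4.69 times at DM2. In the depleted lines the same ratio was 1.31 to 2.97 in GM and 2.84 to 6.26 at DM2. The GM and DM2 ratios did not overlap in the control and MK5-depleted lines and overlapped in the ERK3-depleted line (2.39 to 2.97 and 2.84 to 5.60).

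Igf1r counted 65.1, 68.9 and 61.1 CPM in control GM and 89.7, 101 and 103 at DM2, a 1.51-fold rise without overlap (log2 0.59 ± 0.14, edgeR adjusted p = 0.00274). With the trend of gene length and GC content removed, the rise was 0.29 and no longer passed (adjusted p = 0.187). Igf2r counted 53.0, 50.5 and 42.8 CPM in GM and 61.9, 54.6 and 50.2 at DM2, and these overlapping groups gave a log2 change of 0.19 ± 0.15 (edgeR adjusted p = 0.307).

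Among the binding proteins, Igfbp3, the main carrier of IGFs in serum, counted 11, 10.8 and 11.9 CPM in control GM and 42.5, 61.8 and 76.0 at DM2. The 5.36-fold rise (log2 2.42 ± 0.20, edgeR adjusted p = 2.82e-08) was close in size to that of Igfbp4, a binding protein that restrains IGF action and is cut by the protease PAPP-A. Igfbp4 counted 6.45, 9.84 and 8.31 CPM in GM and 39.5, 37.7 and 38.6 at DM2, a 4.68-fold rise (log2 2.23 ± 0.18, edgeR adjusted p = 2.34e-08). Neither gene had overlapping groups.

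Igfbp5, a binding protein induced in differentiating myoblasts, counted 840, 370 and 524 CPM in control GM and 1400, 1420 and 1260 at DM2. It rose 2.36-fold (log2 1.24 ± 0.23, edgeR adjusted p = 2.61e-04), with a wide spread among the GM libraries and none of them reaching the DM2 values. Igfbp6, which prefers IGF2 over IGF1, fell from 184, 255 and 209 CPM to 115, 125 and 108 (log2 -0.89 ± 0.16, edgeR adjusted p = 1.45e-04). Igfbp7, a low-affinity relative of the family, fell from 682, 777 and 679 to 520, 471 and 526 CPM (log2 -0.50 ± 0.09, edgeR adjusted p = 1.95e-04). For both, every DM2 library was below every GM library. Igfbp2 counted 546, 430 and 425 CPM in GM and 676, 439 and 480 at DM2, and its overlapping groups differed by 0.19 ± 0.16 (edgeR adjusted p = 0.364).

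**Figure D2:**
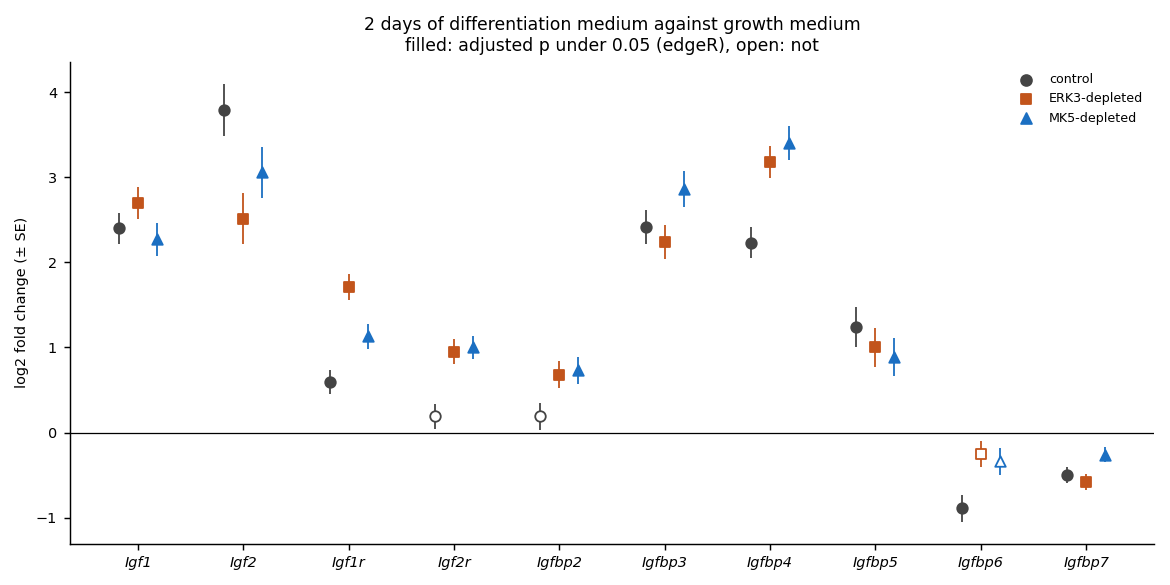
Log2 fold change of each gene from GM to DM2 in the control, ERK3-depleted and MK5-depleted lines (points with SE, 3 libraries per group; filled points passed an adjusted p of 0.05). Igf1, Igf2, Igfbp3 and Igfbp4 have the largest rises in each line, and the receptors rise further above 0 in the depleted lines than in control.

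In the ERK3-depleted line 8 of the 10 genes rose with differentiation and 1 fell, where 28.9% of all tested genes rose and 26.2% fell; the median change of the 10 was 1.35 against 0.01 over all genes. In the MK5-depleted line 8 rose and 1 fell as well, where 24.6% rose and 24.8% fell, with medians of 1.07 and 0.00. Both lines had Igfbp7 as the gene that fell, with log2 changes of -0.58 ± 0.09 and -0.26 ± 0.09 (edgeR adjusted p = 3.69e-05 and 0.0202). The gene that did not pass was Igfbp6 in each, at -0.25 ± 0.15 and -0.34 ± 0.16 (edgeR adjusted p = 0.176 and 0.0768). In the ERK3-depleted line, where libraries were taken as paired by replicate number, a replicate block within the line brought Igfbp6 to -0.27 with an adjusted p of 0.0413. The MK5-depleted fall of Igfbp7 did not pass without GM replicate 1 (adjusted p = 0.0664), GM replicate 2 (0.0799) or DM2 replicate 1 (0.0933) of that line.

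The largest rises in the depleted lines were again those of the ligands, Igfbp3 and Igfbp4. Igf1 rose 6.49-fold and 4.83-fold in the ERK3-depleted and MK5-depleted lines, and Igf2 rose 5.70-fold and 8.31-fold. Igfbp3 rose 4.72-fold and 7.28-fold, and Igfbp4 rose 9.09-fold and 10.6-fold, each with an edgeR adjusted p of at most 3.96e-06. Igf1r rose 3.27-fold and 2.19-fold, Igf2r 1.94-fold and 2.00-fold, and Igfbp2 1.61-fold and 1.66-fold (edgeR adjusted p of at most 0.00179). Igfbp5 rose 2.00-fold and 1.86-fold (edgeR adjusted p = 0.00126 and 0.00342). On the log2(TPM + 1) scale the ERK3-depleted rises of Igfbp2 (0.38, adjusted p = 0.103) and Igfbp5 (0.59, adjusted p = 0.101) and the MK5-depleted rise of Igfbp5 (0.73, adjusted p = 0.0591) did not pass.

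Whether the response itself differed from that of the control line was tested as a difference of differences. This difference is signed, so a fall less steep than in control counts as positive. For the ERK3-depleted line it was positive for 4 of the 10 genes and negative for 1. Over all tested genes it was positive for 14.6% and negative for 14%. Igf1r exceeded the control response by 1.12 ± 0.20 on the log2 scale (edgeR adjusted p = 0.00296), Igfbp4 by 0.96 ± 0.26 (0.0126) and Igf2r by 0.76 ± 0.21 (0.0127). For Igfbp6 the difference of 0.64 ± 0.22 (edgeR adjusted p = 0.0361) was a smaller fall. Its log2 change was -0.89 in control and -0.25 in the ERK3-depleted line. The response of Igf2 was smaller, with a difference of -1.28 ± 0.41 (edgeR adjusted p = 0.0285). For the MK5-depleted line the difference was positive for 2 genes and negative for 0, where it was for 8.54% and 9.48% of all genes. The 2 genes were Igfbp4 (1.17 ± 0.27, edgeR adjusted p = 0.0117) and Igf2r (0.81 ± 0.21, 0.0162). In that line Igfbp4 started lower than control in GM (-1.43 ± 0.21) and was not higher at DM2 (-0.26 ± 0.17, edgeR adjusted p = 0.214). Both depleted lines are set against the same control libraries.

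These differences of response are less secure than the responses. The Igf2 difference did not pass when any of 7 of the 12 libraries was left out, among them control GM replicate 2 (-1.10, adjusted p = 0.0789) and ERK3-depleted DM2 replicate 2 (-1.28, adjusted p = 0.0815), nor with the replicate block within each line (-1.31, adjusted p = 0.0641). With the same block the ERK3-depleted difference of Igfbp2 passed (0.49, adjusted p = 0.00637), and without the block it was 0.50 ± 0.23 (0.111). This block also covers the control line, whose GM and DM2 libraries were not taken as paired by replicate number. The Igfbp6 difference did not pass when any of 8 libraries was left out (0.49 and adjusted p = 0.114 without ERK3-depleted DM2 replicate 2). On the log2(TPM + 1) scale the differences of Igf2r (0.19 and 0.35) and Igfbp4 (0.10 and 0.45) did not pass in either line, nor did that of Igfbp6 (0.13) in the ERK3-depleted line. Adjusted for reads outside genes by a covariate, the ERK3-depleted differences of Igf1r (0.57, adjusted p = 0.0724), Igfbp4 (1.02, 0.0955), Igf2 (-0.93, 0.365) and Igfbp6 (0.31, 0.537) did not pass, and of the 5 genes Igf2r alone did.

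Igf2 was the gene for which the control line moved furthest. Its DM2 libraries counted 123, 155 and 195 CPM in the ERK3-depleted and 174, 154 and 237 CPM in the MK5-depleted line, and both groups overlapped the control range. Its GM libraries counted 32.6, 22.8 and 27.4 CPM in the ERK3-depleted line, all above the control GM libraries, and 31.9, 13.1 and 22.7 in the MK5-depleted line, which overlapped them. The differences of Igf2 from control did not pass in GM (0.86 ± 0.30, edgeR adjusted p = 0.0961, and 0.57 ± 0.30, 0.271) or at DM2 (-0.42 ± 0.27, 0.200, and -0.16 ± 0.27, 0.646). Without control GM replicate 1, which had the highest Igf2 of its group, the ERK3-depleted difference in GM was 1.16 and passed (adjusted p = 0.0383). Myog, the myogenic transcription factor whose CPM followed that of Igf2 most closely, had a difference of response of -1.72 ± 0.48 in the ERK3-depleted line (edgeR adjusted p = 0.0162). The 8 myotube markers together summed to 1950 to 2380 CPM in control, 941 to 1680 in ERK3-depleted and 1170 to 2200 in MK5-depleted DM2 libraries. The part of myotube content in the values of Igf2 was not tested.

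In GM Igfbp2 was higher in both depleted lines, and Igfbp4 was lower in the MK5-depleted line. ERK3-depleted GM libraries differed in 1 gene of the 10, which was higher, and in 0 lower, where 3.72% of all tested genes were higher and 3.06% lower. MK5-depleted GM libraries differed in 1 higher and 1 lower gene, where 4.71% and 3.74% of all genes did. Igfbp2 counted 876, 732 and 754 CPM in the ERK3-depleted line in GM, 824, 678 and 733 in the MK5-depleted line, all above the highest control GM library. The log2 differences were 0.75 ± 0.16 (edgeR adjusted p = 0.0166) and 0.67 ± 0.16 (0.0184). The ERK3-depleted call was lost without control replicate 2 (0.69, adjusted p = 0.112), control replicate 3 (0.69, 0.0738) or ERK3-depleted replicate 1 (0.67, 0.107). The MK5-depleted call was lost without control replicates 2 (0.62, 0.118) or 3 (0.61, 0.0793) or MK5-depleted replicates 1 (0.60, 0.0903) or 3 (0.69, 0.0739). On the log2(TPM + 1) scale neither call was kept (0.68, adjusted p = 0.0983, and 0.67, 0.0958).

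Igfbp4 was lower in MK5-depleted GM libraries, at 2.30, 4.66 and 2.21 CPM against 6.45, 9.84 and 8.31 in control. The groups did not overlap, and the difference was -1.43 ± 0.21 (2.70-fold, edgeR adjusted p = 0.00268). The MK5-depleted and control GM libraries were taken as paired by replicate number. With a replicate block in the whole model 6 genes passed in place of 2, while over all genes 2045 passed in place of 1178. That block applies to all 18 libraries, also between groups that were not taken as paired. Igfbp3 (-0.64, adjusted p = 0.0453), Igfbp5 (0.65, 0.0350), Igfbp6 (-0.39, 0.0176) and Igfbp7 (-0.26, 0.0410) joined Igfbp2 and Igfbp4. Without the block these 4 had differences of -0.65 ± 0.21, 0.63 ± 0.22, -0.39 ± 0.15 and -0.26 ± 0.09. Igfbp5 also passed without control GM replicate 1, in the ERK3-depleted line (0.93, adjusted p = 0.0111) and in the MK5-depleted line (1.0, 0.00513).

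At DM2 the receptors and Igfbp2 were higher in both depleted lines. The ERK3-depleted line had 5 genes higher and 0 lower, where 28% of all tested genes were higher and 27.8% lower; the median difference of the 10 was 0.40 against 0.01 over all genes. The MK5-depleted line had 3 higher and 0 lower, where 22.2% and 22.9% were; its medians were 0.07 and 0.00. Both comparisons share the control libraries.

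Igfbp2 counted 1560, 1000 and 1230 CPM in the ERK3-depleted line at DM2, 1310, 1110 and 1280 in the MK5-depleted line, against 676, 439 and 480 in control. No depleted library came near the control range, and the differences were 1.25 ± 0.16 (2.38-fold, edgeR adjusted p = 1.27e-05) and 1.22 ± 0.16 (2.32-fold, 4.17e-05). Both calls were kept under each of 14 alternatives and with each of 6 libraries left out, with values from 0.71 to 1.59 and from 0.85 to 1.42.

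Igf1r counted 191, 233 and 135 CPM in the ERK3-depleted line at DM2, 132, 154 and 113 in the MK5-depleted line, against 89.7, 101 and 103 in control. All 6 depleted libraries were above control, with differences of 0.93 ± 0.14 (1.90-fold, edgeR adjusted p = 4.86e-05) and 0.44 ± 0.14 (1.36-fold, 0.0183). Adjusted for reads outside genes by a covariate, the ERK3-depleted difference was 0.33 and did not pass (adjusted p = 0.0911). The MK5-depleted difference did not pass without control DM2 replicate 1 (0.38, adjusted p = 0.0739) or MK5-depleted DM2 replicate 2 (0.33, 0.0884), or on the log2(TPM + 1) scale (0.16, 0.158). Without the 4 DM2 libraries that had most reads outside genes it was 0.21, with 1 MK5-depleted DM2 library remaining.

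Igf2r counted 85.2, 68.9 and 109 CPM in the ERK3-depleted line at DM2, 122, 111 and 119 in the MK5-depleted line, against 61.9, 54.6 and 50.2 in control. Again all depleted libraries were above control, with differences of 0.66 ± 0.15 (1.58-fold, edgeR adjusted p = 0.00100) and 1.07 ± 0.15 (2.11-fold, 4.15e-05), but on the log2(TPM + 1) scale the ERK3-depleted value was -0.003 (adjusted p = 0.991). The ratio of Igf1r to Igf2r within a library, in TPM, was 1.05 to 1.44 in control, 1.02 to 2.59 in ERK3-depleted and 0.787 to 1.09 in MK5-depleted DM2 libraries. These ranges overlap between each depleted line and control.

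Igfbp4 counted 56.5, 53.8 and 57.6 CPM in ERK3-depleted DM2 libraries, all above the 37.7 to 39.5 of control, and 29.3, 34.8 and 32.7 in MK5-depleted ones, all below. The ERK3-depleted difference was 0.54 ± 0.16 (1.45-fold, edgeR adjusted p = 0.0101), but -0.30 on the log2(TPM + 1) scale (adjusted p = 0.275), and the MK5-depleted difference of -0.26 ± 0.17 did not pass (0.214) but did on the log2(TPM + 1) scale (-0.63, 0.0342) and with the libraries of the contrast only (-0.24, 0.0352). Igfbp6 counted 173, 190 and 122 CPM in ERK3-depleted DM2 libraries, where replicate 3 lay within the control range of 108 to 125, a difference of 0.48 ± 0.16 (edgeR adjusted p = 0.0145) that was -0.12 on the log2(TPM + 1) scale. The Igfbp6 call was also lost with the trend of length and GC content removed (0.008, adjusted p = 0.955), and without control replicate 3 (0.0574) or ERK3-depleted replicates 1 (0.0516) or 2 (0.0917). Without the 4 DM2 libraries with most reads outside genes, 1 ERK3-depleted DM2 library remained. The differences were then 0.07 for Igfbp6 and 0.57 for Igfbp4.

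The TPM scale moved the bulk of genes, and not these genes alone. At DM2 the median log2(TPM + 1) difference of all genes was -0.46 for the ERK3-depleted and -0.29 for the MK5-depleted line, and it moved by less than 0.1 in GM. Set against that median, the ERK3-depleted differences on the TPM scale were 1.17 for Igfbp2, 0.78 for Igf1r, 0.46 for Igf2r, 0.34 for Igfbp6 and 0.17 for Igfbp4. Igfbp3 and Igfbp7 stood below the median, at -0.34 and -0.22. For Igfbp4 the gene length that RSEM used was also longer in ERK3-depleted DM2 libraries (1946 to 2389 bases) than in control ones (1741 to 1827). The part of that length in its TPM value was not tested. The plot of alternatives shows how far each value travelled.

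**Figure D3:**
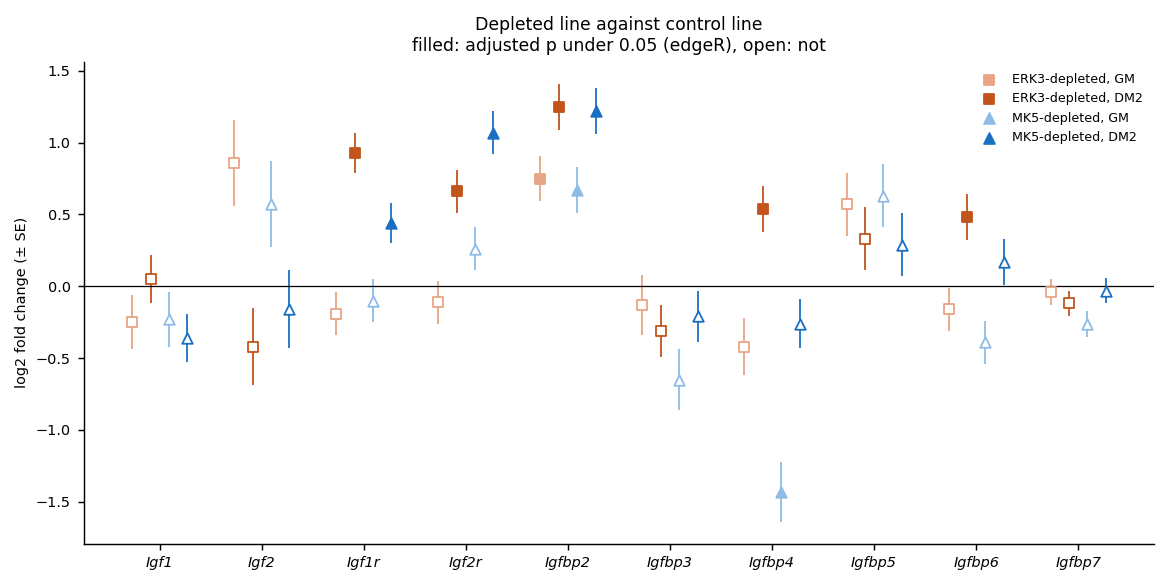
Log2 difference of each depleted line from the control line in GM and at DM2 (points with SE, 3 libraries per group; filled points passed an adjusted p of 0.05). Igfbp2 is above 0 in all 4 comparisons; at DM2 Igf1r and Igf2r are above 0 in both lines on this CPM scale, while on the TPM scale the ERK3-depleted Igf2r, Igfbp4 and Igfbp6 values fall to -0.003, -0.30 and -0.12.

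Igf1, Igfbp3, Igfbp5 and Igfbp7 did not pass in either line at DM2. Igf1 counted 62.0, 91.2 and 61.0 CPM in the ERK3-depleted line, 58.0, 62.1 and 41.7 in the MK5-depleted line, where replicates 1 and 3 lay below the lowest control library, with differences of 0.05 ± 0.17 and -0.36 ± 0.17 (edgeR adjusted p = 0.829 and 0.0955). The MK5-depleted difference of Igf1 passed when adjusted for reads outside genes (-0.52, adjusted p = 0.00758). Without the 4 DM2 libraries with most such reads it was -0.72, with 1 MK5-depleted DM2 library remaining. Igfbp3 differed by -0.31 ± 0.18 and -0.21 ± 0.18, Igfbp5 by 0.33 ± 0.22 and 0.29 ± 0.22, and Igfbp7 by -0.12 ± 0.09 and -0.03 ± 0.09. The ERK3-depleted difference of Igfbp3 passed without control DM2 replicate 1 (-0.51, adjusted p = 0.0171) or ERK3-depleted DM2 replicate 3 (-0.52, 0.0279). It also passed on the log2(TPM + 1) scale (-0.80, adjusted p = 0.00745). On the log2(TPM + 1) scale Igfbp7 did pass, at -0.68 (adjusted p = 5.29e-05) and -0.39 (0.00622), and with the trend of length and GC content removed at -0.55 (1.68e-05) and -0.41 (4.07e-04).

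Within each library, Igfbp2 took a larger share of the binding protein transcripts and Igfbp7 a smaller one in the depleted lines. As a percentage of the summed TPM of the 6 binding proteins, Igfbp2 made up 28.6 ± 3.55% in GM and 34.4 ± 5.01% at DM2 in control (SD, n = 3), 40.4 ± 3.47% and 54.7 ± 4.90% in the ERK3-depleted line, and 42.2 ± 2.84% and 53.7 ± 2.15% in the MK5-depleted line. Igfbp7 made up 49.5 ± 3.45% and 37.1 ± 2.65% in control, 40.2 ± 3.20% and 22.6 ± 2.2% in the ERK3-depleted line, and 37.9 ± 2.74% and 24.7 ± 1.86% in the MK5-depleted line. The ratio of Igfbp2 to Igfbp7, which no scaling of a library changes, was 0.487 to 0.709 in control GM, 0.834 to 1.12 in ERK3-depleted GM and 0.948 to 1.21 in MK5-depleted GM libraries. At DM2 it was 0.820 to 1.16 in control, 2.05 to 2.93 in ERK3-depleted and 1.95 to 2.45 in MK5-depleted libraries. In each medium the depleted and control libraries did not overlap in this ratio, and 3 against 3 libraries cannot give an exact permutation p below 0.10.

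**Figure D4:**
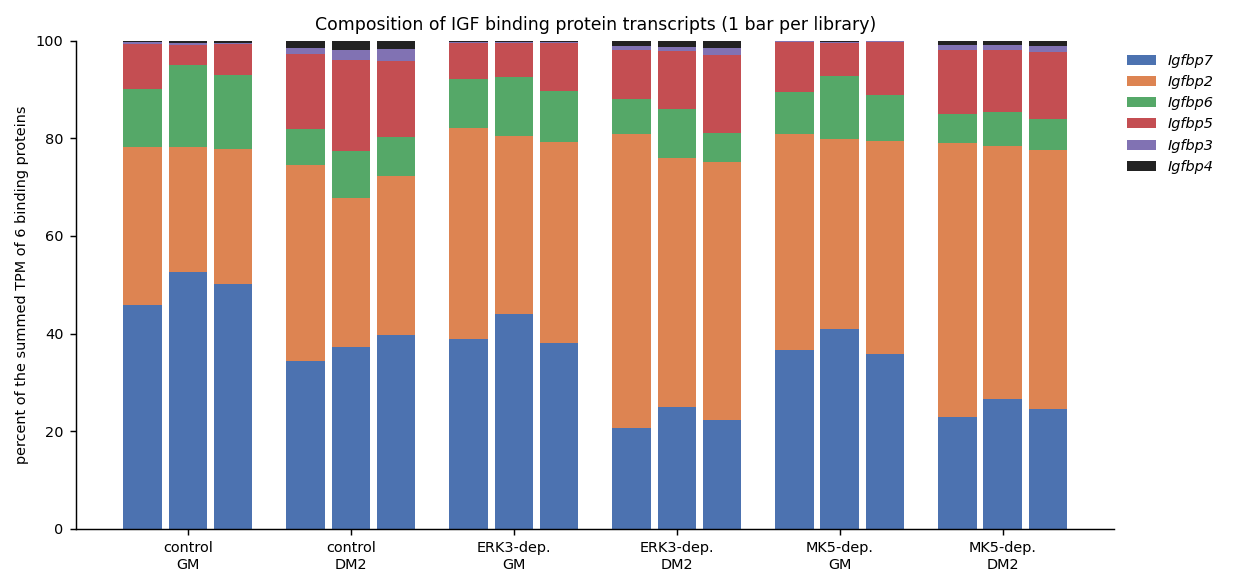
Share of each of 6 binding proteins in their summed TPM (stacked percentages from 0, 1 bar per library, 3 libraries per group). Igfbp2 takes 28.6% of the sum on average in control GM and 54.7% and 53.7% in the depleted lines at DM2, while Igfbp5 rises from 6.56% to 16.5% in control.

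**Figure D5:**
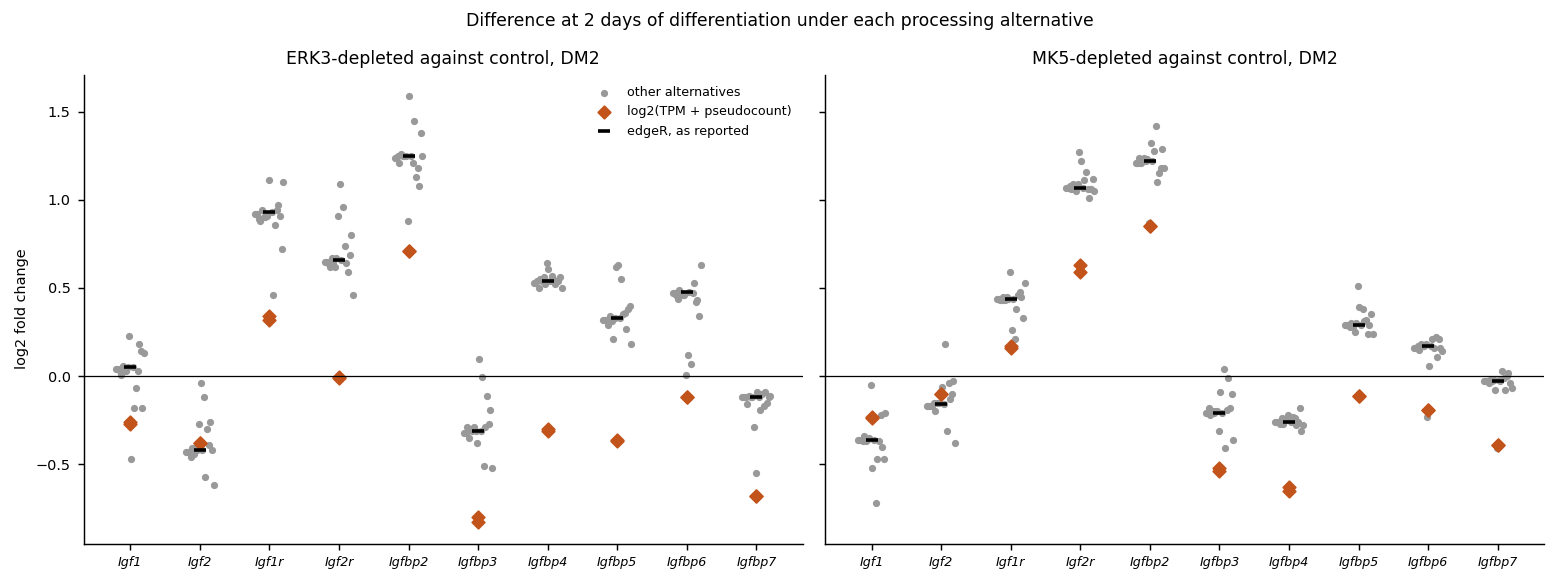
Log2 difference from control at DM2 under each processing alternative (grey points), on the TPM scale (diamonds) and as reported (black bars), for the ERK3-depleted line (left) and the MK5-depleted line (right). Igfbp2 stays above 0 throughout, while Igf2r, Igfbp4 and Igfbp6 of the ERK3-depleted line reach -0.009, -0.31 and -0.12 on the TPM scale.

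Between the depleted lines, 0 of the 10 genes passed in GM and 0 at DM2, where 0% of all tested genes passed in either medium (edgeR). At an unadjusted p under 0.05, 4 of the 10 passed in each medium, where 1167 of 13939 genes did in GM and 2741 at DM2. DESeq2 called Igfbp4 in GM (MK5-depleted minus ERK3-depleted, -1.01, adjusted p = 0.0194) and at DM2 (-0.79, 0.00727), and limma-voom called Igfbp4 at DM2 (-0.80, 0.0384) and none in GM. The DM2 libraries of the depleted lines were taken as paired by replicate number, and replicate 3 stood apart in both. The replicate block in the whole model also covers groups that were not taken as paired. With it Igfbp4 (-0.80, adjusted p = 0.0233) and Igf1r (-0.48, 0.0396) passed, among 368 genes in all. Without ERK3-depleted DM2 replicate 3, 3597 genes passed in the comparison at DM2, with Igf1r (-0.65), Igf2r (0.62), Igfbp4 (-0.75) and Igfbp6 (-0.46) among them.

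The deposited RSEM gene length is a mean over the transcripts of a gene weighted by their estimated abundance. At DM2 a depleted line lay apart from control, without overlap, for the ligands and for Igfbp4. For Igf1 it was 2347 to 3036 bases in control GM and 3396 to 3523 bases in control DM2 libraries, against 2638 to 3369 in ERK3-depleted and 2228 to 2651 in MK5-depleted DM2 libraries. For Igf2 it was 2627 to 2670 bases in control DM2 libraries, 1644 to 1961 in ERK3-depleted and 1946 to 2040 in MK5-depleted ones. The depleted DM2 libraries lay below control without overlap for both ligands. For Igfbp4 it was 1946 to 2389 bases in ERK3-depleted and 1741 to 1827 in control DM2 libraries, without overlap. In MK5-depleted DM2 libraries the Igfbp4 length was 1692 to 2018 bases. For Igfbp3, Igfbp6 and Igfbp7 the length stayed within 10 bases over all libraries. Over all libraries it ranged from 9128 to 11410 bases for Igf1r, 8271 to 8887 for Igf2r and 1156 to 1263 for Igfbp2. For these genes depleted and control DM2 libraries overlapped. The share of all genes whose length sets the groups apart was not computed. These lengths rest on RSEM's split of short reads between transcripts and were not tested.

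Other genes of the pathway were read from lists. Of 10 insulin family and accessory genes 4 were tested, and none of Ins1, Ins2, Insrr, Igfals, Igfbp1 and Igfbpl1 passed the filter. In control 0 rose and 2 fell with differentiation, where 22.5% of all tested genes rose and 23.1% fell: Kazald1, an IGF binding protein-related gene (log2 -1.48), and Lrp1, an endocytic receptor (-0.72, edgeR adjusted p = 4.27e-04). At DM2 Lrp1 counted 390 ± 15.9 CPM in control, 786 ± 39.8 in the ERK3-depleted and 790 ± 25.7 in the MK5-depleted line, differences of 1.01 and 1.02 (edgeR adjusted p = 1.96e-05 and 4.90e-05). For the insulin receptor gene Insr the ERK3-depleted response differed from that of control by 0.48 (edgeR adjusted p = 0.0241).

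Of 10 genes for proteases of binding proteins and their inhibitors 9 were tested, and 7 rose and 0 fell in control (22.5% and 23.1% of all genes), with a median of 0.50. Stc1, an inhibitor of the pappalysin proteases, rose by 2.69 and Pappa2, a pappalysin that cuts IGFBP3 and IGFBP5, by 2.59 (edgeR adjusted p = 7.85e-05 and 1.66e-06). At DM2 5 of the 9 were lower and 1 higher in the ERK3-depleted line and 5 lower and 0 higher in the MK5-depleted line, where 27.8% and 22.9% of all genes were lower and 28% and 22.2% higher. Pappa2 differed by -1.20 and -0.98 (edgeR adjusted p = 0.00121 and 0.00618), Adam9 by -1.04 in the ERK3-depleted line and Adam12, a metalloprotease of myoblasts, by -0.74 in the MK5-depleted line (edgeR adjusted p = 4.80e-06 and 0.00175). Stc1 had 0 reads in the 3 MK5-depleted GM libraries, so that its 0.956 CPM at DM2 is at least 19.7-fold higher than a floor of 3 reads over that group, and its 0.169 CPM in control GM at least 3.49-fold higher. In GM 1 of the 9 was higher and 0 lower in the ERK3-depleted line (3.72% and 3.06% of all genes). The MK5-depleted line had 1 higher and 4 lower in GM (4.71% and 3.74% of all genes). The higher gene was Stc2 in both lines (1.12 and 1.11, edgeR adjusted p = 0.0287 and 0.0254).

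Of 11 genes of the Igf2-H19 locus and regulators of Igf2 mRNA 7 were tested, and 4 rose and 0 fell in control (22.5% and 23.1% of all genes). H19, the non-coding RNA next to Igf2 on chromosome 7, counted 1610, 826 and 1020 CPM in control GM and 4070, 4280 and 3850 at DM2. In GM it was higher in both depleted lines, where every library exceeded control, by 1.16 (ERK3-depleted, edgeR adjusted p = 0.00790) and 1.21 (MK5-depleted, 0.00268). Igf2os, which overlaps Igf2 on the other strand, had a mean of 0.0637 CPM in control GM and 1.58 CPM in control DM2 libraries, and was lower in ERK3-depleted DM2 libraries (-1.82, edgeR adjusted p = 0.00145). Between 92.8% and 95.3% of stranded reads were on the expected strand, so that part of the few Igf2os reads may be Igf2 reads, which was not tested. Airn, a non-coding RNA that begins inside Igf2r on the other strand, was higher at DM2 in both depleted lines, by 1.02 and 1.31 (edgeR adjusted p = 0.00515 and 0.00106), at mean levels of at most 1.93 CPM.

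Of 14 receptor adaptors and brakes 13 were tested, and 9 rose and 0 fell in control (22.5% and 23.1% of all genes), led by the adaptor Irs2 (1.65, edgeR adjusted p = 1.58e-10) and by Trib3, which binds Akt (1.51, 2.48e-04). At DM2 2 were higher in each depleted line, and these were Socs2, a suppressor of cytokine signalling (1.58 and 1.18, edgeR adjusted p = 5.96e-06 and 1.22e-04), and Trib3 (1.01 and 1.49, 0.00227 and 1.90e-04). The number lower was 4 in the ERK3-depleted and 6 in the MK5-depleted line, where 28% and 22.2% of all genes were higher and 27.8% and 22.9% lower. The median differences were -0.12 and -0.14.

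All 26 PI3K, Akt and mTOR genes were tested, and in control 13 rose and 1 fell (22.5% and 23.1% of all genes), with a median of 0.27; Inppl1, a lipid phosphatase, rose by 1.0 and Ddit4, an inhibitor of mTORC1, fell by 0.93 (edgeR adjusted p = 3.89e-06 and 4.63e-07). In the ERK3-depleted line 11 rose and 8 fell (28.9% and 26.2% of all genes), and in the MK5-depleted line 8 rose and 5 fell (24.6% and 24.8%). At DM2, against control, 3 were higher and 13 lower in the ERK3-depleted and 2 higher and 12 lower in the MK5-depleted line, with medians of -0.22 in both. Over all genes 28% were higher and 27.8% lower in the first comparison and 22.2% and 22.9% in the second. With the trend of length and GC content removed, the PI3K, Akt and mTOR genes split 6 higher to 8 lower and 5 to 5, with medians of -0.03 and -0.05, and on the log2(TPM + 1) scale they split 1 higher to 23 lower and 1 to 20. On that scale all 13392 genes split 1187 higher to 7841 lower and 1040 to 5791. Pdpk1, the kinase that activates Akt, differed by -1.06 and -0.89 (edgeR adjusted p = 9.55e-06 and 8.81e-05).

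Over the 18 libraries, 10 pairs of neighbours describe which other genes had the most similar log2 CPM. They were found as the 2 tested genes with the highest Pearson r for each of the 10 genes; the libraries share line, medium and depth, and no p is given. Igf2 was closest to Myog (r = 0.996) and the embryonic myosin gene Myh3 (0.993), both genes of early muscle differentiation. Igf1 was closest to Ccn4 and Rflnb (0.988 each), and Igfbp3 to Ankrd2 and Spry1 (0.987 each). Igfbp4 was closest to the cell cycle inhibitor Cdkn1a (0.982) and the protease gene Htra3 (0.979), and Igfbp5 to Aars (0.973) and the muscle cadherin gene Cdh15 (0.969). The receptor Igf1r was closest to Chd7 (0.989) and Rnf166 (0.981), and Igf2r to Ptgir (0.971) and Lama5 (0.955). Igfbp2 was closest to Zfp536 (0.971) and Msc (0.960), the gene of the bHLH repressor musculin. Igfbp6 was closest to Hcfc1r1 (0.973) and Khk (0.967), and Igfbp7 to Mgl2 (0.956) and Plin2 (0.952), both below every other first neighbour. Among the 10 genes themselves, Igf1, Igf2, Igfbp3 and Igfbp4 correlated at 0.86 to 0.96 in each pair, and Igfbp6 and Igfbp7 at 0.76 with each other.

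Markers of myoblasts and of other states moved with these differences. Of 6 myoblast markers 4 were higher and 0 lower than control in GM in each depleted line (3.72% and 4.71% of all genes higher). At DM2 2 were higher in each, with 2 and 0 lower (28% and 22.2% of all genes were higher, 27.8% and 22.9% lower). The list summed to 1350 to 1670 CPM in control, 1930 to 2180 in ERK3-depleted and 1790 to 2130 in MK5-depleted GM libraries. At DM2 the sums were 2700 to 2980, 3370 to 3830 and 3170 to 3710 CPM. At DM2 the 4 cycling markers summed to 312 to 345 CPM in control, 433 to 632 in ERK3-depleted and 589 to 763 in MK5-depleted libraries, and 3 and 4 of the 4 were higher than control, where 28% and 22.2% of all genes were. The 8 fibroblast markers, of which 7 were tested and Lum reached at most 1.25 CPM, summed to 7100 to 8870 CPM in control, 5480 to 6430 in ERK3-depleted and 6210 to 7070 in MK5-depleted DM2 libraries, with 3 and 4 lower (27.8% and 22.9% of all genes) and 1 higher in each. Of 5 Schwann cell and neuron markers, with Sox10 at 0 in all libraries, 2 were tested, and the list summed to 11.5 to 46.9 CPM in control, 45.0 to 119 in ERK3-depleted and 81.9 to 133 in MK5-depleted DM2 libraries, with 2 and 1 higher than control. Of 5 leukocyte markers, with Adgre1 at 0 in all libraries, 2 were tested, and the list summed to 0.821 to 1.21, 1.66 to 2.73 and 1.47 to 2.57 CPM, with 2 and 1 higher. The part of these shifts in the differences of the IGF genes was not tested.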

How the data were processed

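PolyA RNA of 18 C2C12 libraries was sequenced with a stranded kit, per the labels' protocols. The authors deposited STAR gene counts (raw reads per gene, unstranded and for each strand) and RSEM tables with expected counts and TPM per gene, per the file headers. The submitters' processing notes name bcl2fastq 2.17, STAR 2.5.1b, RSEM 1.2.28 and GRCm38, and their settings are not given in the sources used here. The reverse-strand counts (92.8% to 95.3% of stranded reads) were tested with edgeR 4.0.16 (R 4.3.3): filterByExpr, TMM, a mean per group, robust quasi-likelihood tests and Benjamini-Hochberg adjustment over 13939 genes, called under an adjusted p of 0.05. Rows that name no gene were left out, and these rows held 21.7% to 35.8% of reads. Reads of genes removed by the filter are not in that share. Standard errors are the log2 change over the root of the F statistic. Depth limits precision most for Stc1 and Igf2os, with few reads per library. TPM values compare levels between genes. DESeq2 1.42.0 and limma 3.58.1 served as alternatives, with other scalings, filters, covariates and left-out libraries. The main edgeR fit was tested on simulated counts for DM2 against GM in control only, with genes changed in the control DM2 libraries.

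Named genes were all 10 IGF genes, the 2 called genes of largest change in each pathway list and contrast, and the 2 nearest neighbours by correlation. Among the list genes, 1 is not reported here. The members, lists and tests were chosen with earlier results of these data known, so the lists are not independent evidence. Gene positions are from GENCODE M21 (50376 of 50600 identifiers matched). Labels give each group replicate numbers 1 to 3. Same-numbered libraries were taken as paired where each of 3 correlations of their deviations from the group means exceeded 0.1. This held between GM and DM2 in the ERK3-depleted line (0.156, 0.291 and 0.290), between control and either depleted line in GM (0.142 to 0.290), and at DM2 between control and ERK3-depleted (0.108 to 0.205) and between the depleted lines (0.281 to 0.498). It did not hold in the other pairs of groups. The rule cannot show that libraries were paired. Between GM and DM2, libraries of unlike number reached 0.182 in control and 0.28 in the MK5-depleted line. Between lines no correlations of unlike numbers were computed. The replicate block in the whole model covered all 18 libraries, and the block within each line covered every line. Both therefore took in pairs of groups that were not taken as paired.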

Additional observations from a re-analysis of the deposited data

Results flagged for a closer look

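The response to differentiation differed from that of the control line, by the test of the difference itself (edgeR, adjusted p under 0.05), for 5 of the 10 genes in the ERK3-depleted line. These were Igf2 (-1.28 on the log2 scale), Igf1r (1.12), Igf2r (0.76), Igfbp4 (0.96) and Igfbp6 (0.64). The positive value of Igfbp6 stands for a smaller fall than in control. Over all tested genes 14.6% had a positive and 14% a negative difference in that line. In the MK5-depleted line the response differed for Igf2r (0.81) and Igfbp4 (1.17), where 8.54% of all tested genes had a positive and 9.48% a negative difference. Igfbp4 of that line was lower than control in GM and was not higher at DM2. With the covariate for reads outside genes, only Igf2r of the 5 passed in the ERK3-depleted line. On the log2(TPM + 1) scale neither gene passed in the MK5-depleted line. These alternatives and the effect of leaving out each library are given with the results.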

How the results depend on the processing

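The counts of genes called for differentiation (8 in control, 9 in each depleted line) stayed within 1.5 times under every alternative run, and over left-out libraries ranged from 8 to 8, 9 to 9 and 8 to 9. For ERK3-depleted against control in GM (1 gene) the count was 3 with no filter, 2 with the libraries of the contrast only, and 0 on log2(TPM + 1), on log2(TPM + 0.1) and under an adjusted p of 0.01; it was 0 to 3 over left-out libraries (3 without control replicate 1). At DM2 (5 genes) it was 8 with no filter, 2 adjusted for reads outside genes by a covariate and 3 under an adjusted p of 0.01, with 4 to 6 over left-out libraries. Leaving out the 4 DM2 libraries with most reads outside genes was an alternative chosen after seeing the data. It left 1 library in each depleted DM2 group, so no count is given for it. For MK5-depleted against control in GM (2 genes) it was 5 with DESeq2, 6 with no filter, 6 with the replicate block, 1 on either TPM scale, 4 with the length and GC trend removed and 1 under an adjusted p of 0.01, and 1 to 4 over left-out libraries (4 without MK5-depleted replicate 2, where Igfbp5 and Igfbp6 joined). At DM2 (3 genes) it was 5 with no filter and 5 with the libraries of the contrast only, and 2 to 3 over left-out libraries. Between the depleted lines (0 genes) it was 1 with DESeq2 and 2 with no filter in GM, with 0 to 1 over left-out libraries; at DM2 it was 1 with DESeq2, 1 with limma-voom, 4 with no filter and 2 with the replicate block, with 0 to 4 over left-out libraries. For the ERK3-depleted difference of response (5 genes) it was 3 on either TPM scale, 1 with the covariate and 1 under an adjusted p of 0.01, with 3 to 5 over left-out libraries. For the MK5-depleted one (2 genes) it was 6 with no filter, 4 with the libraries of the contrast only, 5 with the replicate block in the whole model, 5 with the replicate block within each line, 0 on either TPM scale and 0 under an adjusted p of 0.01, with 2 to 3 over left-out libraries. The cause of these changes was not tested, but the fit with no filter estimated an infinite prior degrees of freedom (6.17 with the filter).

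Values of opposite sign to a call appeared only for ERK3-depleted against control at DM2 on the log2(TPM + 1) and log2(TPM + 0.1) scales: -0.003 and -0.009 for Igf2r, -0.30 and -0.31 for Igfbp4, and -0.12 and -0.12 for Igfbp6. Of 1480 values of single genes under the alternatives other than left-out libraries, and leaving aside the one chosen after seeing the data, 1309 kept their direction and side of the threshold, 45 lost a call in the same direction, 6 lost a call with the opposite sign (above), 82 gained a call and 38 changed sign without a call on either side; of 780 with a library left out, 711 kept both, 30 lost a call, 16 gained one and 23 changed sign without a call.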
